A study of Mus musculus with 10 samples.

Results

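A set of 35 genes of glycolysis and the hypoxia response was examined in long-term hematopoietic stem cells (LT-HSCs) sorted from mouse fetal liver. They are a given list of gene symbols. All 35 were rows of the table of 17404 genes, and all 35 had at least 11 counts in total, the lowest total being 676. A further 88 genes of the same pathways (other isozymes, pyruvate entry, the pentose phosphate pathway, other hypoxia regulators and targets) were listed beside them.

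The cells came from embryos at E14.5. The 6 KO libraries were from Tnfrsf11aCre; Spi1f/f embryos, heterozygous for Cre, and the 4 WT libraries from Tnfrsf11a+/+; Spi1f/f littermates, so that both groups carried floxed alleles of Spi1, the gene of the transcription factor PU.1. Cre in KO embryos was made from the Tnfrsf11a locus, which is active in macrophage precursors, and the model was built to remove fetal macrophages. The comparison therefore asked whether LT-HSCs that had developed in a macrophage-poor liver differed from littermate LT-HSCs. The sex of the embryos was not given in the labels. The study counts its libraries as embryos, whereas the labels name only sorted samples, and p-values measure the spread between these.

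Glycolysis splits glucose into pyruvate in the cytosol. Glucose enters through GLUT transporters, hexokinase and phosphofructokinase commit it to the pathway, and pyruvate is then either reduced to lactate by lactate dehydrogenase or taken into mitochondria and oxidized by the pyruvate dehydrogenase complex, which the PDK kinases switch off. Hypoxia-inducible factors (HIFs) are made of an oxygen-labile alpha subunit and the stable partner ARNT. When oxygen is present, prolyl hydroxylases mark the alpha subunit and the VHL ligase has it degraded, and when oxygen is low HIF binds hypoxia response elements and raises genes of glycolysis, PDK1 and VEGF. Adult bone marrow HSCs are known to lean on glycolysis and HIF-1, whereas fetal liver HSCs divide and use mitochondrial respiration more.

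Depth was 5315435 to 30941726 gene counts per KO library and 7633446 to 18256010 per WT library. Values are CPM, counts scaled to a common library size after TMM normalization, unless TPM, a level per transcript length, is named. Spi1 itself was at 9.1 to 101 CPM in KO and 6.22 to 50.1 CPM in WT (adjusted p = 0.337, edgeR), so it did not check the labels in these cells. The macrophage receptor Marco was listed at 0 in all 6 KO libraries and at 3.41 to 14.3 CPM in WT. Of the 11 macrophage markers measured it was the only one called lower and the only one whose KO and WT libraries did not overlap. All 12 LT-HSC markers were measured, with a summed level of 1120 to 2129 CPM in KO and 633 to 1009 CPM in WT, and 4 of them were called higher in KO. Every KO sum lay above every WT sum. RNA of other liver cells was present and uneven. The 10 endothelial markers summed to 1839 to 10532 CPM in KO and 668 to 6836 CPM in WT, the 10 erythroid markers measured to 2212 to 95107 CPM in KO and 2812 to 240503 CPM in WT, the 8 megakaryocyte markers to 243 to 3660 CPM in KO and 248 to 1254 CPM in WT, and the 10 hepatoblast markers to 90.6 to 9045 CPM in KO and 269 to 6195 CPM in WT. The 11 macrophage markers measured summed to 155 to 766 CPM in KO and 36.9 to 637 CPM in WT, and the 8 granulocyte markers to 12.6 to 1156 CPM and 6.07 to 2121 CPM. Within the macrophage sum Mrc1 alone was at 65.4 to 714.5 CPM in KO and 3.11 to 489 CPM in WT. Log2 fold changes were below 0 for 9 of the 11 macrophage markers, with a median of -1.17, and above 0 for Cd68 (0.30) and Mrc1 (0.22). They were above 0 for 11 of the 12 LT-HSC markers (median 1.27) and for all 8 megakaryocyte markers (median 1.09). The same held for all 10 hepatoblast markers (median 0.77) and 9 of the 10 endothelial markers (median 0.22). All 10 erythroid markers were below 0 (median -1.37), and 1 of them was called lower. The part of other liver cells in the values of the 35 genes was not tested except where a gene is named with it. The refits given below covered only globin, endothelial and megakaryocyte RNA. In bulk samples a smaller number of cells of a type and less RNA in each cell cannot be told apart. WT replicate 15416 stood apart, with the fewest endothelial and LT-HSC marker reads of all 10 libraries and with 2.73 CPM of Ptprc, the gene of CD45, against 18.03 to 149.5 CPM elsewhere.

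The highest mean TPM over the 10 libraries was that of Ldha, which makes lactate from pyruvate, at 1370 ± 287 TPM in KO (SD, n = 6) and 1191 ± 352 TPM in WT (SD, n = 4). Gapdh, Aldoa, Eno1 and Pkm followed, with mean levels over all libraries of 1186, 857, 843 and 609 TPM. The 17 genes from hexokinase to lactate dehydrogenase together made up 0.51% to 0.863% of all TPM in KO libraries and 0.43% to 0.641% in WT libraries, and the 5 highest supplied between 72.8% and 77.0% of that sum. At the other end were Vegfa, Ddit4, Pfkfb4 and Pfkfb3, at mean levels of 2.17, 2.78, 3.75 and 4.42 TPM. The levels of Gapdh are uncertain, because 77 other annotated genes contain stretches of at least 300 bases that are at least 95% identical to it, and the authors' quantification gave these genes together 40.2% as much TPM as Gapdh itself. For Pgam1 and Pgk1 such genes took 7.85% and 6.48% as much TPM as the gene. Exons of other annotated genes cover 22.3% of the exonic bases of Bnip3, 16.1% of Pdha1, 15.3% of Pkm, 11.5% of Gpi1 and 10.7% of Pfkm, so that their reads may be shared.

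**Figure D1:**
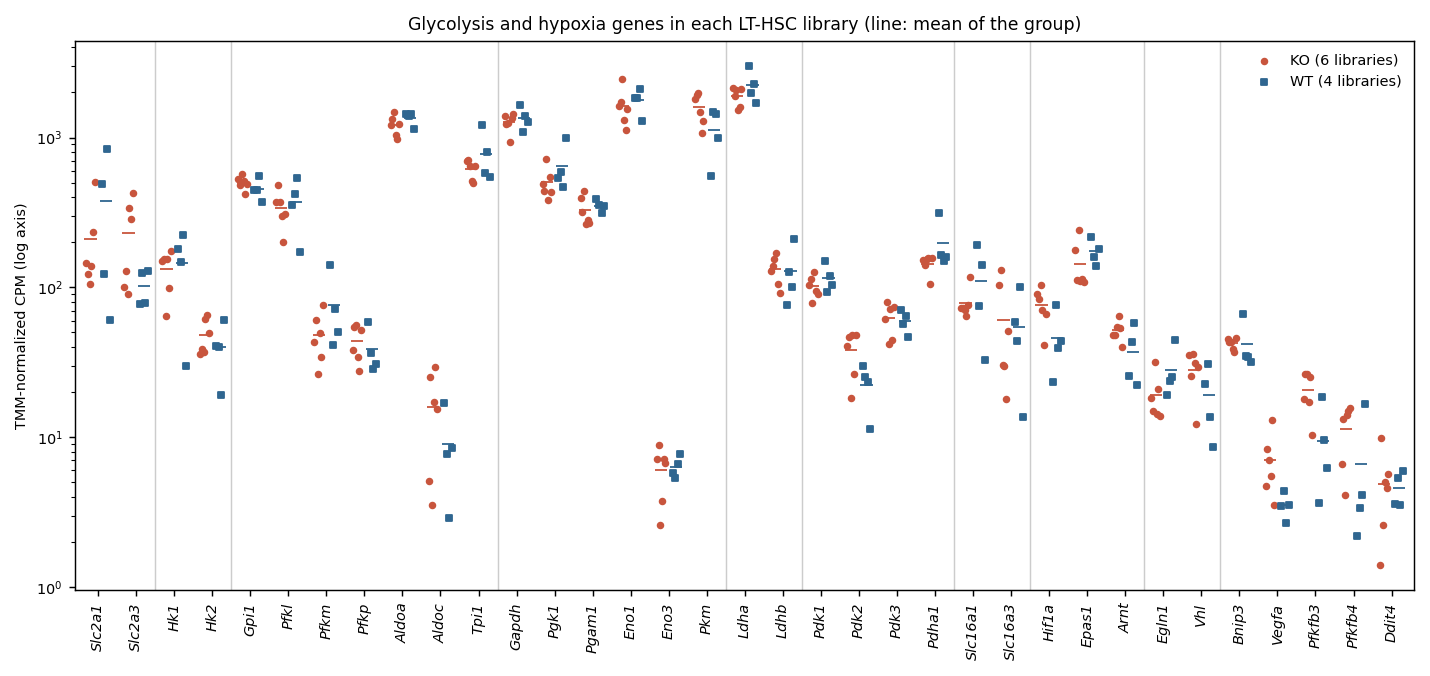
TMM-normalized CPM of the 35 genes in each library on a log axis, with KO libraries as circles, WT libraries as squares, a line at each group mean and grey lines between roles. Ldha reaches 3014 CPM and Ddit4 goes down to 1.40 CPM, and for every gene the KO and WT ranges overlap.

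None of the 35 genes differed between KO and WT by edgeR's quasi-likelihood test at an adjusted p below 0.1, neither higher nor lower. Over all 16725 genes tested, 1.32% were called higher and 2.67% lower. These background calls depended on the method and the scaling, with 221 higher and 446 lower here. DESeq2 called 585 and 551 with the study's log2 fold-change threshold of 0.1, and 998 and 1145 with none. By limma on TPM there were 479 and 12, and with an offset for transcript length 50 and 351. The calls by edgeR ended, at 0 and 0, in 5 of the 10 fits that left out 1 library. Before adjustment 4 of the 35 (11.4%) had p below 0.05 and a higher KO level, namely Slc2a3, Pfkfb3, Hif1a and Pdk2, and none had a lower one, whereas 8.6% and 10.2% of all genes did. DESeq2 with the study's log2 fold-change threshold of 0.1 and limma on TPM also called 0 of the 35, and DESeq2 with no such threshold called 2, Slc2a3 and Pfkfb3, both higher. For 0 of the 35 did the KO and WT libraries fail to overlap, whereas 6.36% of all genes had groups that did not overlap. The median log2 fold change of the set was 0.02 and that of all genes 0.06. The 95% confidence interval lay within a 2-fold change in either direction for 17 of the 35 genes. For the rest, both glucose transporters included, the interval reached beyond a 2-fold change.

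**Figure D2:**
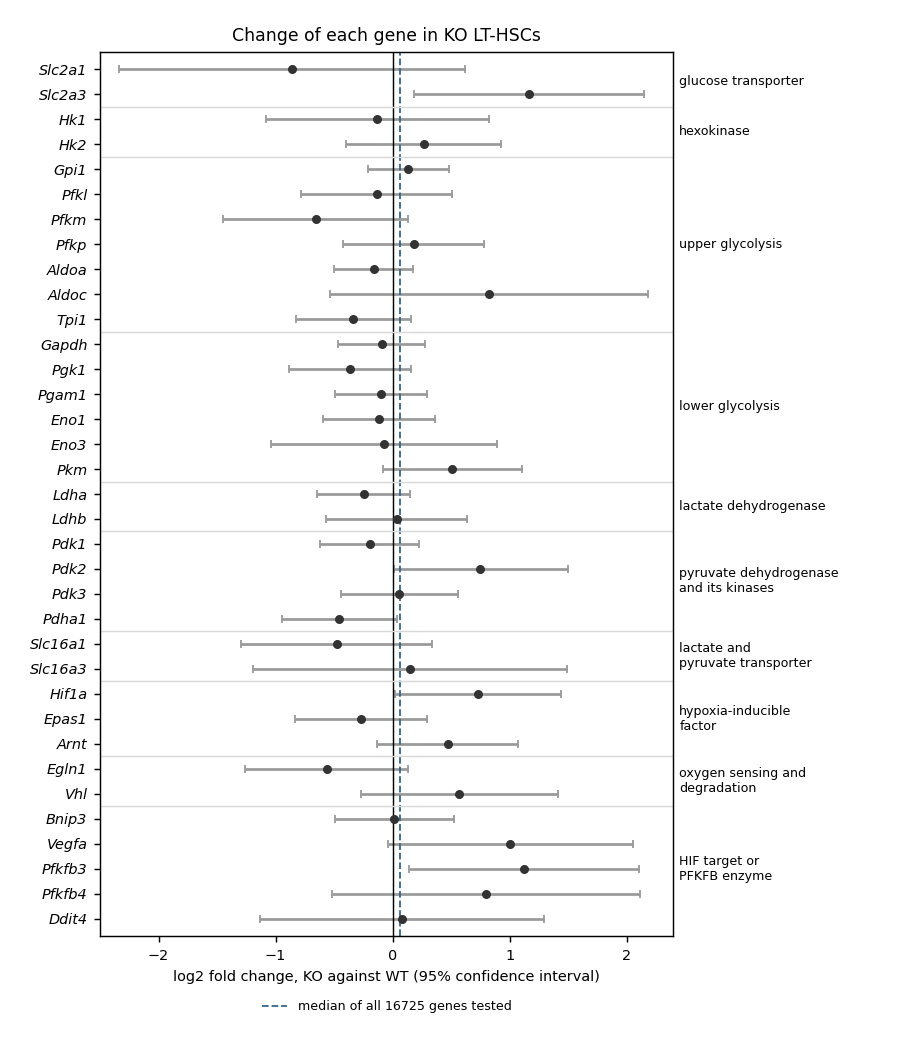
Log2 fold change of each gene, KO against WT, with its 95% confidence interval from edgeR, grouped by role; the dashed line is the median of all genes tested. The intervals of Slc2a3, Pdk2, Hif1a and Pfkfb3 lie above 0 and the highest value is 1.16 for Slc2a3.

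Of the glucose transporters, Slc2a3 (GLUT3, a high-affinity carrier; chromosome 6, 122727809 to 122801640, GRCm38) had the smallest p of the set. Its levels in the KO libraries were 90.4, 100.1, 128, 287, 341 and 429 CPM, and in the WT libraries 77.1, 78.4, 125 and 129.5 CPM. The 3 highest KO libraries, replicates 15412, 15411 and 15415, lay above every WT library and the other KO libraries lay among them. The log2 fold change was 1.16 with a standard error (SE) of 0.45 (adjusted p = 0.196, edgeR). The same 3 KO libraries carried the most megakaryocyte marker RNA, 2498 to 3660 CPM against 243 to 1254 CPM in the other libraries, with each of the 8 markers, Pf4 and Ppbp included, highest in these 3. With the megakaryocyte level as a covariate the log2 fold change of Slc2a3 was 0.64 (adjusted p = 0.149), and with Xist, a marker of female cells, as a covariate it was 0.36 (adjusted p = 0.726). Without the 3 libraries with most megakaryocyte RNA the log2 fold change of Slc2a3 was 0.08 (adjusted p = 0.927, edgeR). These libraries are also those with most Slc2a3, so the part of megakaryocyte RNA in Slc2a3 was not tested by this fit. Slc2a1 (GLUT1, the carrier of red blood cells and their precursors among many others) had a higher mean in WT, at 379 ± 363 CPM (SD, n = 4), than in KO, at 209 ± 152 CPM (SD, n = 6), but its range of 60.4 to 844 CPM over the 10 libraries, 14-fold, was the widest of the 35 genes. Its highest levels, 844, 506 and 488 CPM, were in WT replicate 15418, KO replicate 15415 and WT replicate 15416. Klf1, an erythroid transcription factor, was at 777 CPM in WT replicate 15418, 747 CPM in WT replicate 15416, 211 CPM in KO replicate 15415 and 276 CPM in WT replicate 15417, and at 62.7 to 132 CPM in the others. The log2 fold change of Slc2a1 was -0.86, with a 95% interval from -2.34 to 0.62 (adjusted p = 0.534, edgeR). It shrank to -0.04 without WT replicate 15418 and to -0.00376 on TPM. It was -1.21 without WT replicate 15420, -1.34 without KO replicate 15415 and -1.55 with Xist as a covariate. Without the 3 libraries with most megakaryocyte RNA it was -1.59. It was below 0 in all 25 alternatives and passed the threshold in none. With the globin level as a covariate it was -0.91 and without the 3 libraries with most globin -0.75. In WT replicate 15416 the globin gene Hba-a2 was at 799 CPM, the lowest of the 10 libraries, beside 747 CPM of Klf1. The globin level therefore did not follow Klf1 in that library, and the part of erythroid RNA in Slc2a1 was not tested by these fits.

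**Figure D3:**
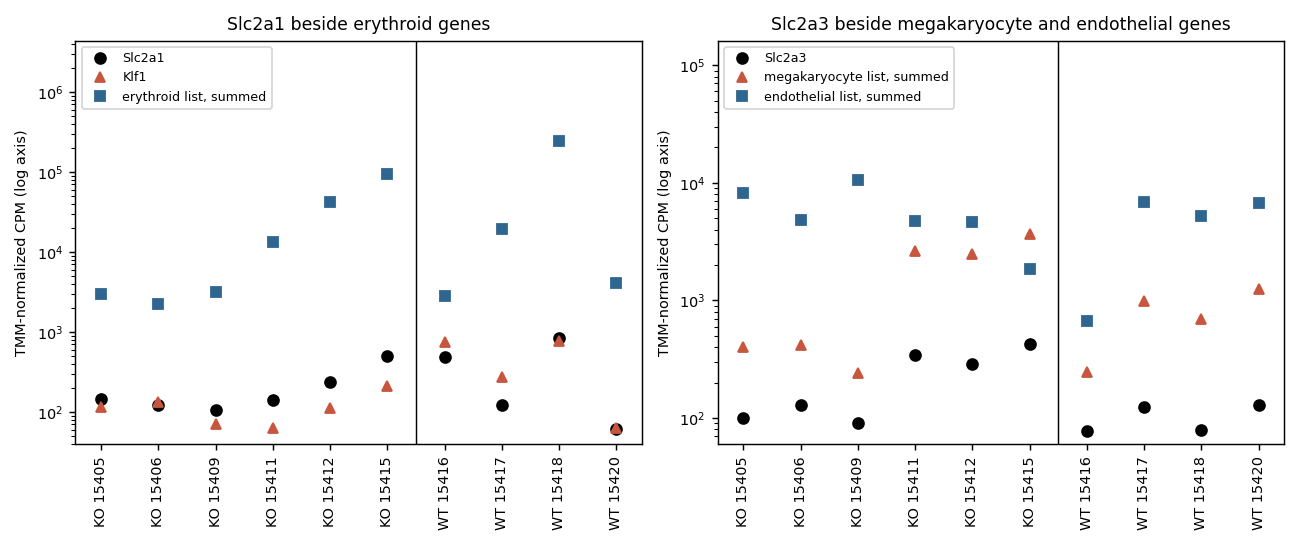
TMM-normalized CPM on log axes, by library, of Slc2a1 with Klf1 and the summed erythroid markers (left) and of Slc2a3 with the summed megakaryocyte and endothelial markers (right); the vertical line parts KO from WT. Slc2a3 is at 287 to 429 CPM in the 3 KO libraries with 2498 to 3660 CPM of megakaryocyte markers and at 77.1 to 129.5 CPM in the other 7.

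From hexokinase to lactate dehydrogenase, 6 of 17 log2 fold changes were above 0 and 11 below, with a median of -0.10 that turned to 0.32 on TPM, where the median of all genes was 0.27. Hk1 and Hk2, which trap glucose as glucose 6-phosphate, had log2 fold changes of -0.13 (SE 0.44) and 0.26 (SE 0.31). Gpi1, the isomerase of the next step, was among the steadiest genes, at 499.5 ± 51.6 CPM in KO (SD, n = 6) and 455 ± 73.9 CPM in WT (SD, n = 4). Of the phosphofructokinases, which form fructose 1,6-bisphosphate, the liver type Pfkl and the platelet type Pfkp had log2 fold changes of -0.14 (SE 0.30) and 0.18 (SE 0.28). The muscle type Pfkm (chromosome 15, 98092589 to 98132451) was at 26.3, 34.5, 42.9, 49.3, 60.85 and 76.5 CPM in KO and at 41.5, 50.7, 71.65 and 141 CPM in WT. There were 2 KO libraries below every WT library, and the highest value was that of WT replicate 15416. Pfkm thus had a log2 fold change of -0.66 (SE 0.37, adjusted p = 0.359), and of -0.18 without WT replicate 15416.

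The aldolase Aldoa, which cleaves the 6-carbon sugar, varied by 1.5-fold between its lowest and highest library and had a log2 fold change of -0.16 (SE 0.16). Aldoc, its scarce brain isozyme, had 0.82 (SE 0.63), with 3.52 to 29.3 CPM in KO and 2.88 to 16.9 CPM in WT. Tpi1, which interconverts the triose phosphates (chromosome 6, 124810586 to 124814296), was at 495.5, 514, 645, 646, 699 and 709.8 CPM in KO and at 545, 576, 796 and 1203 CPM in WT, the last being WT replicate 15416. Its groups overlapped and the log2 fold change was -0.34 (SE 0.23, adjusted p = 0.455), with 0.17 on TPM and -0.05 without WT replicate 15416. Pgk1, the first step that yields ATP (chromosome X, 106187100 to 106203699), was at 381, 431, 441, 491, 546 and 718 CPM in KO and at 465, 536, 587 and 993.7 CPM in WT. Here 3 KO libraries lay below every WT library, and WT replicate 15420 was highest. The difference came to -0.36 on the log2 scale (SE 0.24, adjusted p = 0.439), and 0.11 on TPM. Without WT replicate 15420 it was -0.08.

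For Gapdh, Pgam1 and Eno1, the dehydrogenase, mutase and enolase of the lower pathway, log2 fold changes were -0.09 (SE 0.17), -0.10 (SE 0.18) and -0.12 (SE 0.22), each smaller than its error. The muscle enolase Eno3 stayed at 2.60 to 8.85 CPM in every library. Pkm, the pyruvate kinase of most tissues, was at 1591 ± 373 CPM in KO (SD, n = 6) and 1116 ± 434 CPM in WT (SD, n = 4), and 4 of 6 KO libraries exceeded the highest WT library. Its lowest library was WT replicate 15416, at 551.5 CPM, and the log2 fold change was 0.51 (SE 0.28, adjusted p = 0.344). On TPM it was 1.03 (adjusted p = 0.136, limma), where the median of all genes was 0.27. The lactate dehydrogenases, Ldha and the heart type Ldhb, had log2 fold changes of -0.25 (SE 0.18) and 0.03 (SE 0.28), and that of Ldhb was 0.38 without WT replicate 15420.

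Isozymes of 1 step were compared as shares of their family's TPM. Aldoa, Eno1, Pgam1, Pgk1 and Pkm each took over 95% of their families on average and were the highest isozyme in 10 of 10 libraries. Ldha took 85.7% to 96.9% of lactate dehydrogenase TPM and Pfkl 55.3% to 78.9% of phosphofructokinase TPM, and both led in all 10 libraries. Hexokinase was divided between Hk1, with a mean share of 51.5%, and Hk2, with 40.9%. Hk2 exceeded Hk1 in KO replicates 15409 and 15412 and in WT replicate 15420, where Hk1 had 14.4%. Of the Hk2 TPM, however, 78.9% was on a short transcript of 594 bases annotated as noncoding, which held 26.3% of the estimated counts of Hk2, and among protein-coding transcripts alone Hk1 led in 9 of 10 libraries. The same holds for Slc2a1: it led Slc2a3 in 8 of 10 libraries, but 69.0% of its TPM was on a transcript annotated for nonsense-mediated decay, and on coding transcripts alone Slc2a3 led in 8 of 10. Less than 50% of the TPM of 5 genes, Hk2, Gpi1, Slc2a1, Pfkfb4 and Pdk1, was on protein-coding transcripts. Among pyruvate dehydrogenase kinases Pdk3 and Pdk1 had mean shares of 39.1% and 37.2%, and among HIF alpha subunits Epas1 (HIF-2 alpha) led in 10 of 10 libraries with a mean share of 56.5%, ahead of Hif1a with 30.3% and Hif3a with 13.2%.

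**Figure D4:**
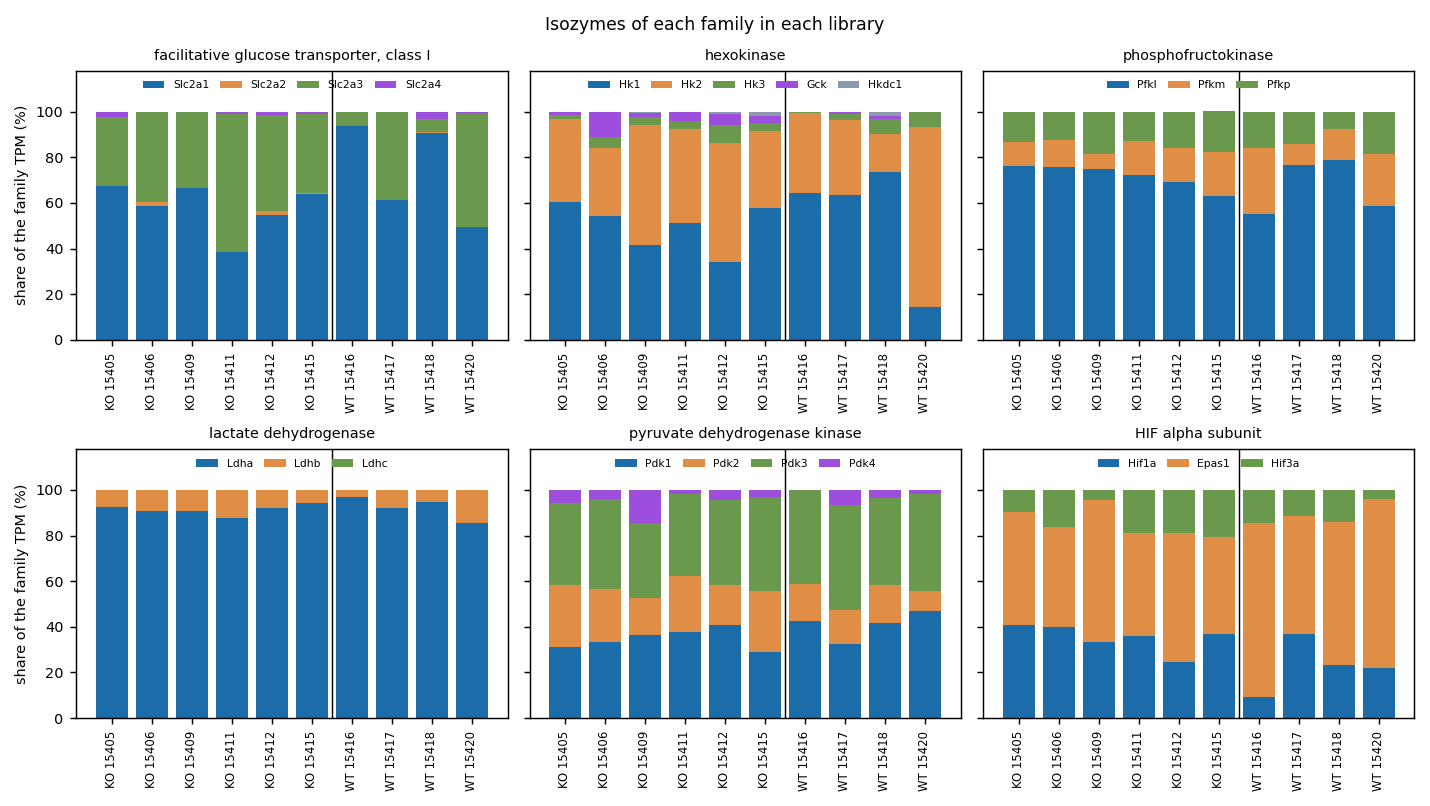
Share of each family's TPM taken by each isozyme in each library, in percent, for 6 families; the vertical line parts the 6 KO from the 4 WT libraries. Ldha fills at least 85.7% of its bar everywhere, while Slc2a1 ranges from 38.5% to 93.6% and Hk1 from 14.4% to 73.7%.

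No share differed between KO and WT after adjustment over the 9 families tested. The share of Epas1 among HIF alpha subunits was 49.9% ± 7.93 in KO (SD, n = 6) and 66.4% ± 11.3 in WT (SD, n = 4), a difference of -16.4 percentage points (two-sided exact permutation test, p = 0.0286, adjusted p = 0.214). The share of Pdk3 among the PDK kinases was 37.2% ± 2.87 in KO (SD, n = 6) and 42.0% ± 3.26 in WT (SD, n = 4; exact permutation test, p = 0.0476, adjusted p = 0.214). On shares of estimated counts in place of TPM this difference of -4.84 percentage points was -0.37 (exact permutation test, p = 0.824), while that of Epas1 was -16.2. The smallest p that 210 splits allow is 0.00476. For Slc2a1 the share was 58.4% ± 10.8 in KO (SD, n = 6) and 73.8% ± 21.9 in WT (SD, n = 4), with an adjusted p of 0.407 in the exact permutation test. For Ldha, Egln2, Hk1 and Pfkl the differences were -0.81, -0.43, -4.27 and 4.44 percentage points. These values depended on single WT libraries. Without WT replicate 15420 they were -3.02, -7.97, -17.5 and 1.58 percentage points, and that of Slc2a1 was -23.5 in place of -15.4. Without WT replicate 15416 those of Ldha and Pfkl were 0.71 and 0.43, and without WT replicate 15418 that of Pfkl was 8.28. None was past the adjusted threshold.

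Pkm makes its muscle form M1 or its embryonic and proliferative form M2 by including 1 of a pair of mutually exclusive exons of equal length. Both exons are shown because the choice between them makes the 2 forms. The M2 and M1 transcripts are 2432 and 2041 bases long, so they also differ outside these exons, and their estimated levels do not rest on the exons alone. They lie on the plus strand of chromosome 9 of GRCm38, are 167 bases long and differ at 64 positions, which are in capitals (Gencode vM21 transcripts, 5′ to 3′).
M1 exon, chr9:59675029-59675195: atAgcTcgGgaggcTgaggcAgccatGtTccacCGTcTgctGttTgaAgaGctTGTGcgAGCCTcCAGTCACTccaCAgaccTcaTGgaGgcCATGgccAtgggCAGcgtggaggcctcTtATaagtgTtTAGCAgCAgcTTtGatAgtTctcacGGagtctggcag
M2 exon, chr9:59675568-59675734: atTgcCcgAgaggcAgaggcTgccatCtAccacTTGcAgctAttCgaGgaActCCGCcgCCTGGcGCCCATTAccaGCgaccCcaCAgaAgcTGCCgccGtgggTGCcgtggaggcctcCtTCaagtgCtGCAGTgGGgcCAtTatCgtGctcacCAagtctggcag
Of the TPM on the 2 main coding transcripts, which contain these exons, the M2 transcript took 94.2% ± 1.80 in KO (SD, n = 6) and 93.4% ± 3.59 in WT (SD, n = 4). It took 92.7%, 92.7%, 93.1%, 93.2%, 93.2%, 93.3%, 96.4% and 96.6% in 8 libraries, 89.4% in WT replicate 15416 and 98.1% in WT replicate 15420. The M1 transcript rested on 109 estimated counts in WT replicate 15420 and on 651.5 to 1994 in the other libraries. The library with the least Pkm RNA also had the lowest M2 share, and KO and WT overlapped.

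At the fork after pyruvate, Pdha1, the catalytic alpha subunit of pyruvate dehydrogenase (chromosome X, 160122209 to 160138413), had the smallest p of the genes with a negative fold change. It was at 106, 141, 151, 154, 156.5 and 157 CPM in KO and at 151, 159.8, 165.5 and 314 CPM in WT. Except in KO replicate 15412 and WT replicate 15416, the levels of both groups fell between 141 and 165.5 CPM. On the log2 scale the difference was -0.46 (SE 0.23, adjusted p = 0.303, edgeR), with 0.05 on TPM and -0.14 without WT replicate 15416. Of the bases in its exons 16.1% also lie in exons of Map3k15 on the opposite strand, and the reads carry no strand information that would part them. Pdk2, a kinase that inactivates Pdha1 (chromosome 11, 95026258 to 95041354), was at 18.2, 26.2, 40.4, 46.8, 47.9 and 48.0 CPM in KO and at 11.3, 23.3, 25.4 and 29.9 CPM in WT. In 4 of 6 KO libraries it was above every WT library. Its log2 fold change was 0.75 (SE 0.34, adjusted p = 0.261), and 1.14 on TPM (adjusted p = 0.134, limma). Pdk1, the HIF-responsive kinase, and Pdk3 had log2 fold changes of -0.20 (SE 0.20) and 0.06 (SE 0.23). Neither lactate carrier passed the test. Slc16a1 (MCT1) was at 32.98 to 191 CPM over all libraries with a log2 fold change of -0.48 (SE 0.38). Without WT replicate 15416 it was -0.07, and with an offset for transcript length -0.91. Slc16a3 (MCT4, the exporter of glycolytic cells) was at 13.6 to 129.8 CPM with 0.15 (SE 0.61).

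Of the 10 hypoxia genes, 8 had log2 fold changes above 0, and their median of 0.52 stood against 0.06 for all genes, though none passed the test. The median ranged from 0.31 to 0.67 over the alternative analyses, the upper value on TPM, where all genes had a median of 0.27. Hif1a, the alpha subunit of HIF-1 (chromosome 12, 73901375 to 73947530), was at 41.5, 66.9, 70.2, 83.5, 89.8 and 103 CPM in KO and at 23.5, 39.6, 43.9 and 75.8 CPM in WT. The 3 highest KO libraries exceeded all WT libraries, and the lowest KO library fell within the WT range. The log2 fold change was 0.73 (SE 0.33, adjusted p = 0.248, edgeR), and 1.09 without WT replicate 15417 (adjusted p = 0.107). On TPM it was 1.17 (adjusted p = 0.168, limma). Epas1, the alpha subunit that endothelial cells express strongly, had -0.27 (SE 0.26), with 4 of 6 KO libraries below every WT library. With an offset for transcript length Epas1 had -0.76 (adjusted p = 0.183, edgeR). Its highest level, 242 CPM, was in KO replicate 15409, which had the most endothelial marker RNA, its second highest, 217.5 CPM, in WT replicate 15416, which had the least, and its lowest, 108 CPM, in KO replicate 15415, which had the second least. In the refits for endothelial RNA Epas1 was not past the threshold, and the part of endothelial RNA in Epas1 was not otherwise tested. Arnt, the shared partner, had 0.47 (SE 0.28, adjusted p = 0.386), or 0.81 without WT replicate 15418, with 40.3 to 64.4 CPM in KO and 22.2 to 57.8 CPM in WT.

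The genes that turn HIF over had fold changes of opposite sign, neither past the test. Egln1, the main prolyl hydroxylase (chromosome 8, 124908587 to 124949324), was at 13.9, 14.3, 14.9, 18.2, 20.9 and 31.8 CPM in KO and at 19.1, 23.9, 25.1 and 44.4 CPM in WT. In 4 of 6 KO libraries it was below every WT library. Its log2 fold change was -0.56 (SE 0.32, adjusted p = 0.372), and -0.97 with an offset for transcript length (adjusted p = 0.164, edgeR). Vhl had 0.57 (SE 0.39, adjusted p = 0.460), with 12.2 to 35.9 CPM in KO and 8.63 to 30.97 CPM in WT. Egln2, not in the set, supplied most prolyl hydroxylase TPM, 53.7% to 85.7%.

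Among HIF targets and PFKFB enzymes, Pfkfb3, whose product makes the activator of phosphofructokinase (chromosome 2, 11471433 to 11554077), was at 10.4, 17.2, 18.1, 25.3, 26.55 and 26.6 CPM in KO and at 3.64, 6.23, 9.61 and 18.5 CPM in WT. The highest WT value, that of WT replicate 15417, lay within the KO range, and 3 KO libraries exceeded it. The log2 fold change was 1.12 (SE 0.45, adjusted p = 0.205, edgeR), and without WT replicate 15417 it was 1.67 (adjusted p = 0.086), past the threshold, whereas without WT replicate 15416 it was 0.85 (adjusted p = 0.349) and with an offset for transcript length 0.91. Vegfa, the endothelial growth factor (chromosome 17, 46016993 to 46032369), was at 3.55, 4.75, 5.51, 7.09, 8.38 and 13.05 CPM in KO and at 2.66, 3.49, 3.54 and 4.35 CPM in WT. In 5 of 6 KO libraries it exceeded every WT library, at as few as 25 counts in a library. Vegfa had a log2 fold change of 1.01 (SE 0.48, adjusted p = 0.285). Pfkfb4 had 0.80 (SE 0.61), with the highest level of all, 16.7 CPM, in WT replicate 15420, without which the log2 fold change was 1.82 (adjusted p = 0.104). Bnip3, a mitophagy receptor, and Ddit4, an inhibitor of mTORC1 signalling, had 0.02 (SE 0.23) and 0.08 (SE 0.56). Without WT replicate 15416 Bnip3 had 0.33. Bnip3 was at 37.05 to 45.8 CPM in all 6 KO libraries and at 31.7 to 66.1 CPM in WT.

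The promoters were searched for the core of the hypoxia response element, ACGTG or GCGTG on either strand, in a window of 300 bases that spans each RefSeq start (GRCm38.p6). ACGTG is also part of the E-box CACGTG, which then counts on both strands. Promoters were at hand for 33 of the 35 genes, and 38 of their 48 promoters (79.2%) held the core, against 43.8% of all 32851 promoters. Windows of 1 gene can overlap, as for Aldoa and Eno1, so the same match can count in more than 1 promoter. By gene 30 of 33 had it in at least 1 promoter, against 7888 of 12845 of all tested genes with a promoter, the exceptions being Gpi1, Tpi1 and Vhl. The promoters of Ldha, the most abundant transcript, of Pgk1, a dominant isozyme, and of Pfkfb3, the HIF target with the smallest p, are given with the core in capitals. For Ldha and Pfkfb3 the window with more matches is shown, 7 and 4 against 2 and 1 in their other windows.
Ldha, chr7:46845554-46845853, plus strand: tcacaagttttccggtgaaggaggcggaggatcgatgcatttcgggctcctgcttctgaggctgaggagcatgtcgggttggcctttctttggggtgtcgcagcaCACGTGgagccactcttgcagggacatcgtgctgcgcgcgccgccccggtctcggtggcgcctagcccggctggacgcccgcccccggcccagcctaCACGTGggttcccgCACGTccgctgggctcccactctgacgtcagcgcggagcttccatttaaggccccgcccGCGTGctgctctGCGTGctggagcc
Pgk1, chrX:106186850-106187149, plus strand: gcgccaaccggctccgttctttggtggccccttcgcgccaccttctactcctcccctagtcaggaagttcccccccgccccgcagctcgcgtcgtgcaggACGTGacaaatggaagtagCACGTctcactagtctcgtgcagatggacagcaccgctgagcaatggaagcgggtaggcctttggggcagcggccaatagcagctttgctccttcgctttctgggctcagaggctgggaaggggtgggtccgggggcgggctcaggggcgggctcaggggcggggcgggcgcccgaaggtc
Pfkfb3, chr2:11502041-11502340, minus strand: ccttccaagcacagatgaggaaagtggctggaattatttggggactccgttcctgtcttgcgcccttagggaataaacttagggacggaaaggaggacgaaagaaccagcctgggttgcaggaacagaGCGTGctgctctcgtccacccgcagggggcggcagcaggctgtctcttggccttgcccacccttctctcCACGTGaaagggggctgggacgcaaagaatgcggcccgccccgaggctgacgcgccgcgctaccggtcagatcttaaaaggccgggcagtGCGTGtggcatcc
The 30 genes with the core had a median log2 fold change of -0.03 and the 3 without it 0.14 (for all genes 0.01 with the core and 0.16 without). A match is a description of the letters in this window and not a binding site.

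Of the 88 other genes of these pathways 86 were tested, and 1 was called higher and 2 lower, against 1.32% and 2.67% of all genes. With p below 0.05 before adjustment, 10 (11.6%) had higher and 13 (15.1%) lower KO levels, against 8.6% and 10.2% of all genes. Mpc1, a subunit of the mitochondrial pyruvate carrier (chromosome 17, 8282904 to 8297661), was at 42.5, 54.6, 61.1, 64.6, 68.3 and 70.4 CPM in KO and at 76.7, 83.9, 146 and 157 CPM in WT. It fell by 0.94 on the log2 scale (SE 0.24, adjusted p = 0.0836, edgeR). Rpe, an epimerase of the pentose phosphate pathway (chromosome 1, 66700831 to 66719805), was at 25.1, 27.2, 27.3, 27.9, 34.0 and 37.9 CPM in KO and at 45.0, 45.1, 51.3 and 57.0 CPM in WT. It fell by 0.73 on the log2 scale (SE 0.19, adjusted p = 0.0906). For both genes every KO library lay below every WT library, and 23.1% and 17.9% of their exonic bases also lie in exons of a neighbour on the opposite strand. Pgam2, the muscle phosphoglycerate mutase, was the gene called higher (adjusted p = 0.0877) and was barely detected, at 0.855, 1.10, 1.26, 1.30, 1.55 and 2.04 CPM in KO and at 0.0739, 0.0758, 0.178 and 0.283 CPM in WT. These levels are 1 to 2 counts in each WT library and 8 to 66 in each KO library. Per unit of depth the ratio of its pooled counts, 163 to 6, was 11, with an exact 95% interval of 4.96 to 30.5 that covers counting error only. No pathway gene passed once any one of KO replicates 15405, 15406, 15411, 15412 or 15415 or WT replicate 15416 was left out.

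Short of the threshold, the next smallest p among the genes with lower KO levels was that of Higd1a, a hypoxia-inducible mitochondrial protein, with a log2 fold change of -0.86 (SE 0.25, adjusted p = 0.103). Among those with higher KO levels the transporter Slc2a9 followed, with 2.52 (SE 0.77, adjusted p = 0.117), and H6pd, the pentose phosphate enzyme of the endoplasmic reticulum, with 0.83 (SE 0.25, adjusted p = 0.117). By list, 8 of 10 genes of pyruvate entry had log2 fold changes below 0, with a median of -0.32, and 6 of 8 pentose phosphate genes, with a median of -0.37. On TPM these medians were 0.12 and 0.06, beside 0.27 for all genes. The medians of the other isozymes and transporters, the other hypoxia regulators and the other HIF targets were 0.15, 0.19 and 0.07, and with an offset for transcript length those of the regulators and targets were -0.08 and -0.28, where all genes had -0.08. In 4 of the 86 genes, Mpc1, Rpe, Pgam2 and Elob, the KO and WT libraries did not overlap, against 6.36% of all genes. Elob, a subunit of the ligase that holds VHL, was at 185, 200.7, 207, 214, 226 and 238 CPM in KO and at 243, 258, 296 and 483 CPM in WT, with a log2 fold change of -0.60 (SE 0.20, adjusted p = 0.145).

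**Figure D5:**
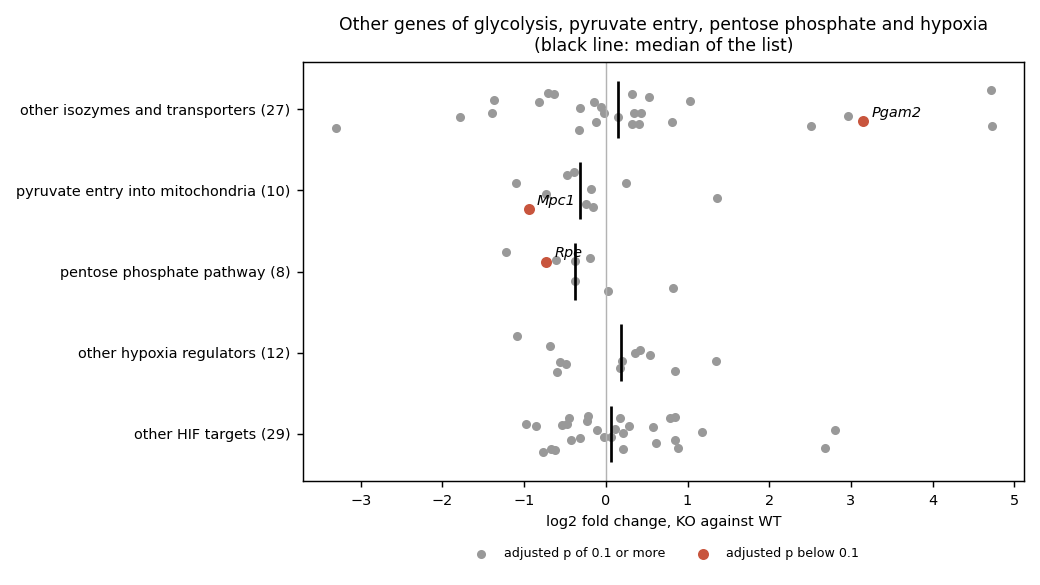
Log2 fold change, KO against WT, of the 86 other pathway genes tested, by list, with a black line at each list's median and the 3 genes past an adjusted p of 0.1 named. Pgam2 lies at 3.15, Mpc1 at -0.94 and Rpe at -0.73, and the medians of pyruvate entry and the pentose phosphate pathway lie at -0.32 and -0.37.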

How the data were processed

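RNA of sorted LT-HSCs was amplified by SmartSeq2, which copies whole transcripts without strand information, sequenced single-end and quantified by the authors with Kallisto 0.44.0 on Gencode vM16 (GRCm38), after bcl2fastq 2.20 (submitters' processing notes). The authors deposited TPM and estimated counts per transcript for each library and a table of estimated counts per gene symbol, rounded to whole numbers. The reads carry no molecular identifiers.

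Genes were kept from a total of 11 counts on and tested with edgeR 4.0.16 (R 4.3.3; TMM, glmQLFit with robust estimation, glmQLFTest) and called at a Benjamini-Hochberg adjusted p below 0.1, the study's threshold. SEs were derived from the F statistic. On simulated counts with known changes the fit was tested first. TPM was summed by gene. Shares of family TPM by the highest isozyme were tested by exact permutation where its mean share was between 5% and 95%. DESeq2 1.42.0, limma 3.58.1 on log2(TPM + 1), other scalings, filters, covariates and each library left out were alternatives. Positions are from Gencode vM21. Python 3.11.15 and pandas 2.3.3 made the tables.

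The members and lists were chosen with earlier results of these data known. Values in every library are given for the 5 members with the smallest p in each direction and for genes past the threshold or with groups that do not overlap, and of the other pathway genes those past the threshold and the 3 with the smallest p in each direction are named. Slc2a1, Pkm and Elob are described further after their values were seen.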

Additional observations from a re-analysis of the deposited data

Results flagged for a closer look

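In 7 of the 70 groups of values (35 genes in KO and in WT) 1 library lay apart from the rest of its group by Dixon's test at the 95% level, where chance flags about 1 in 20. KO replicate 15415 had the highest Slc2a1, 506 CPM, and the highest Slc16a1, 117 CPM, of the KO libraries. It also had the most erythroid, hepatoblast and megakaryocyte marker RNA of that group, and their part was not tested. KO replicate 15412 had the lowest Pdha1, 106 CPM. WT replicate 15416 had the highest Pdha1, 314 CPM, and the highest Bnip3, 66.1 CPM, of the WT libraries. WT replicate 15420 had the lowest Aldoa, 1140 CPM, and the highest Pfkfb4, 16.7 CPM, of the WT libraries.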

How the results depend on the processing

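The fold changes of the 35 genes were recomputed under 25 alternatives. Of these 875 values 807 moved by less than 1 SE, 55 moved further and 3 passed the threshold: Slc2a3 and Pfkfb3 by DESeq2 with no fold-change threshold (1.16 and 1.12, adjusted p = 0.0891 and 0.0868) and Pfkfb3 without WT replicate 15417. Of the 21 genes with a value beyond 1 SE, 10 values changed sign, 8 of them on log2(TPM + 1), where the median of all genes was 0.27: Aldoa 0.27, Tpi1 0.17, Pgk1 0.11, Ldha 0.22, Pdk1 0.28, Pdha1 0.052, Slc16a1 0.19 and Epas1 0.11. The other 2 were Aldoa (0.00796) and Epas1 (0.061) without the 3 libraries with most megakaryocyte RNA. The cause was not tested.

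The number of the 35 genes called higher was 0 in each alternative but DESeq2 with no threshold (2) and, among fits without 1 library (0 to 1), that without WT replicate 15417. None was called lower in any. Before adjustment the offset for transcript length gave p below 0.05 (edgeR) for 2 higher and 4 lower of the 35. Of all 16306 genes in that fit, 870 were higher and 2015 lower at this p. Of the other pathway genes, the numbers called higher and lower were 4 and 5 by DESeq2 with the threshold, 6 and 10 by DESeq2 with none, 2 and 5 with filterByExpr, 3 and 0 by limma on TPM, 0 and 0 at an adjusted p below 0.05 and with Xist as a covariate, 1 lower with the offset for transcript length, and 0 to 3 higher and 0 to 4 lower without 1 library. Over all 16725 genes the numbers were 585 and 551 by DESeq2 with the threshold and 998 and 1145 with none. With filterByExpr they were 326 and 646 of 13665 genes. Of 16306 genes they were 479 and 12 by limma on TPM and 50 and 351 with the offset. At an adjusted p below 0.05 no gene of all those tested passed, the smallest being 0.0743 (edgeR). Chosen after seeing the data were covariates and left-out libraries for globin, endothelial and megakaryocyte RNA: 4 other pathway genes were lower with the globin covariate, 2 higher with the endothelial covariate, and 0 and 0 passed with the megakaryocyte covariate or without the 3 libraries with most globin, the 2 with least endothelial or the 3 with most megakaryocyte RNA. With these 3 covariates the numbers of all 16725 genes called higher and lower were 258 and 483, 321 and 472, and 2 and 0. Over all genes the calls also ended, at 0 and 0, with Xist as a covariate, without the sets of libraries named above and without KO replicates 15405, 15406, 15412 or 15415 or WT replicate 15416. No isozyme share passed under any alternative. On protein-coding transcripts only, 3 families reached an adjusted p of 0.1 without falling below it, for Pfkfb1, Epas1 and Pdk3, with differences of -23.5, -15.7 and -5.92 percentage points. Depth limits the scarce genes, with as few as 23 counts of Ddit4 and 25 of Vegfa in a library.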
